A study of Homo sapiens with 6 samples.

Results

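The 48 genes described here encode RNA-binding proteins that choose which exons are kept in messenger RNA, and they were picked by symbol from the 58825 genes of 1 expression table. They comprised 15 hnRNP proteins, 10 SR proteins, 5 SR-related and TRA2 proteins, 11 tissue-specific regulators and 7 other RNA-binding regulators. RNA of MHCC97H cells, an established line of human hepatocellular carcinoma, was sequenced after poly(A) selection in 3 libraries labelled shControl (genotype WT) and 3 labelled shPTBP1 (genotype PTBP1 Knockdown). PTBP1 is itself an hnRNP protein, so the comparison asks whether the other regulators of splicing had different RNA levels in the libraries labelled as its knockdown. The labels do not give the hairpin carried by the shPTBP1 libraries or the cultures the libraries came from, and a caption of the study that speaks of independent experiments does not name the libraries, so the p-values below measure only the spread between these 6 samples. The deposited counts summed to between 68704509 and 85317970 per library, and 45 of the 48 genes had enough counts to be tested.

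PTBP1 was checked first. Its level was 21.2, 16.4 and 27.4 FPKM in shControl 1, 2 and 3, where FPKM is fragments per kilobase of gene scaled to the depth of the library, and 17.3, 16.9 and 18.0 FPKM in shPTBP1 1, 2 and 3. The groups overlapped, and the log2 fold change of -0.29 (SE 0.18) had an adjusted p of 0.953 in the quasi-likelihood test of edgeR. It was -0.13 between the libraries numbered 1 and 2 and -0.54 between those numbered 3. A group is therefore named below by its label and not by a knockdown measured in these libraries. The study reported verifying its PTBP1 hairpin transfection in MHCC97H cells by western blot and RT-qPCR, without naming these libraries. All 10 markers of hepatocytes and hepatocellular carcinoma, ALB, AFP and HNF4A among them, were under 1 FPKM in each library. Of these, 6 were listed at 0. Of the 4 epithelial genes, the keratins KRT8 and KRT18 were at 37.7 FPKM or more. CDH1 was at 0.02 to 0.05 FPKM and EPCAM was listed at 0. KRT8 was higher in each shPTBP1 library than in any shControl library. Its log2 fold change was 0.32 (SE 0.10, adjusted p = 0.726 from edgeR). Of the 5 fibroblast and endothelial genes, COL1A1 and COL3A1 were at 6.35 FPKM or more, PDGFRB at 1.09 to 2.23 FPKM, VWF at 0.03 to 0.20 FPKM and PECAM1 at 0.03 to 0.53 FPKM. COL3A1 was higher in each shPTBP1 library than in any shControl library, with a log2 fold change of 0.74 (SE 0.15, adjusted p = 0.336 from edgeR). The libraries numbered 3 stood apart from the others. The 5 red-cell genes summed to 1279 and 799 CPM (counts scaled to library size with TMM normalization) in shControl 1 and 2 and to 849 and 759 CPM in shPTBP1 1 and 2, against 1.32 CPM in shControl 3 and 1.15 CPM in shPTBP1 3, with HBD and ALAS2 listed at 0 FPKM in both libraries numbered 3. Of the 7 leukocyte genes, LYZ, S100A8 and CD3E were at 0 in both libraries numbered 3. The leukocyte sum, between 21.8 and 42.2 CPM, was nonetheless carried in the libraries numbered 3 by CD68, a lysosomal gene, at 9.42, 12.7 and 21.5 CPM in shControl 1, 2 and 3 and 24.0, 22.4 and 30.6 CPM in shPTBP1 1, 2 and 3. Its groups did not overlap, with a log2 fold change of 0.82 (SE 0.31, adjusted p = 0.832 from edgeR).

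The hnRNP proteins coat new transcripts and often block the use of nearby splice sites, whereas SR proteins bind enhancers within exons through RNA recognition motifs and recruit the spliceosome through domains rich in arginine and serine. Tissue-specific regulators such as the RBFOX, MBNL, CELF, ESRP and NOVA families act on top of these widely expressed factors and set the exon choices of muscle, neurons or epithelium. Many of these genes limit their own expression by including an exon with an early stop codon, often called a poison exon, which sends the transcript to nonsense-mediated decay.

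Such exons are shown here because the deposited values are sums over a gene, in which reads of productive and decayed transcripts are not separated. GENCODE release 29 listed a nonsense-mediated decay transcript for 34 of the 48 genes, against 42.1% of the 13791 protein-coding genes tested, and a retained-intron transcript for 35 of them, against 56.0%. The shares were not matched for the number of annotated transcripts, a median of 12.5 for the 48 genes against 7 for the protein-coding genes. ESRP1, with 1 annotated nonsense-mediated decay transcript, was left out of the search for exons that hold the early stop codon. At least 18 of the 48 genes had such an exon outside the principal transcript, with 28 of these exons listed. The 6 below, on hg38, run 5′ to 3′ on the gene's own strand from the exon's first base to the stop codon, which is in capitals. They lie at chr6:36599821-36599854 on the plus strand in SRSF3, chr2:38749319-38749346 on the minus strand in SRSF7, chr3:185931772-185931852 on the minus strand in TRA2B, chr20:43459153-43459304 on the plus strand in SRSF6, chr2:70225357-70225393 on the minus strand in TIA1 and chr10:119580810-119580846 on the minus strand in TIAL1.
SRSF3: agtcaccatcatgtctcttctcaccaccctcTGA
SRSF7: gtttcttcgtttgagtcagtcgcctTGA
TRA2B: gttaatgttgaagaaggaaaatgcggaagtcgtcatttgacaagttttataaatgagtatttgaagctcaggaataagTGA
SRSF6: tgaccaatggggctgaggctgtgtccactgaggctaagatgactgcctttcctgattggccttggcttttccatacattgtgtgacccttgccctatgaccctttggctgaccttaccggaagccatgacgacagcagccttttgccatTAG
TIA1: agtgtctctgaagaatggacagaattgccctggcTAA
TIAL1: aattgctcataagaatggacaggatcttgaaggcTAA
The exons that open with these bases are 456 bases long in SRSF3, 449 in SRSF7, 276 in TRA2B and 268 in SRSF6. In TIA1 and TIAL1, a pair of related genes, the exons differ in length, with 66 and 376 bases. Both genes reach the end of the stop codon at base 37 of the exon. Of these 37 bases, the stop codon included, 25 are identical at the same position (67.6%). How often any of these exons was used in the 6 libraries was not analysed here.

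The 48 genes together took between 0.492% and 0.648% of the summed FPKM of a library. Their mean over the 6 libraries was 100 FPKM or more for 5 genes, between 10 and 100 FPKM for 27, between 1 and 10 FPKM for 11 and under 1 FPKM for 5. The hnRNP proteins held the highest levels, with a median gene at 64.6 FPKM and HNRNPA1 at 194, HNRNPAB at 171, HNRNPA2B1 at 129, HNRNPK at 128 and HNRNPA3 at 103 FPKM. The SR proteins followed with a median of 26.2 FPKM and a range from 7.67 FPKM in SRSF4 to 36.2 FPKM in SRSF6. The tissue-specific regulators ranged from 13.7 FPKM in MBNL2 to almost none: ESRP1, the epithelial regulator, was listed at 0 to 0.02 FPKM, and the neuronal regulators NOVA1 and NOVA2 at 0 to 0.01 FPKM. These 3 genes had at most 12 counts in any library and were not tested. ESRP2, the paralog of ESRP1, was measured at 4.29, 6.63 and 5.16 FPKM in shControl 1, 2 and 3 and at 4.45, 5.95 and 6.11 FPKM in shPTBP1 1, 2 and 3.

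**Figure D1:**
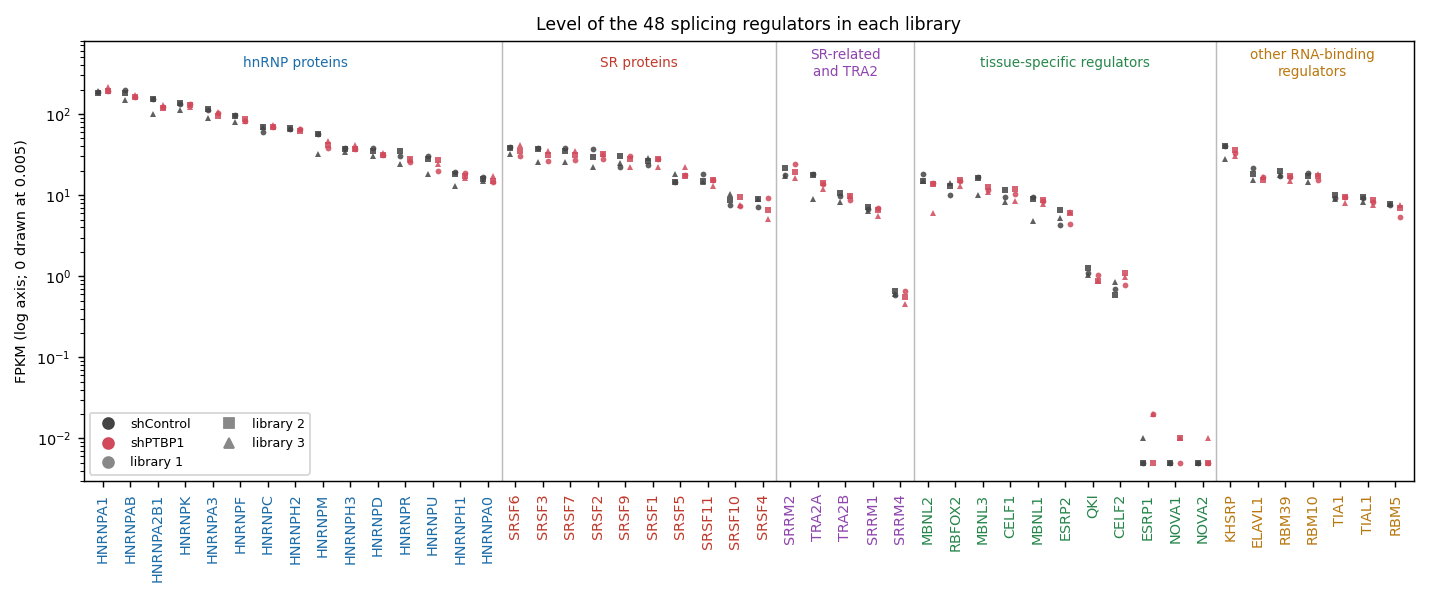
Deposited FPKM (log axis, 0 drawn at 0.005) of the 48 genes in each of the 6 libraries, grouped by role and ordered by mean level. Dark symbols are shControl and red symbols shPTBP1 libraries, with a circle, square and triangle for numbers 1, 2 and 3; the hnRNP proteins lie between 13.1 and 214 FPKM, ESRP1, NOVA1 and NOVA2 lie at or near 0, and the groups overlap for nearly every gene.

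No regulator passed the test between the groups. None of the 45 genes tested had an adjusted p under 0.05 in edgeR, where 0.0309% of all 19393 genes tested did (6 genes), and none had an unadjusted p under 0.05, where 5.69% of all genes did. DESeq2 also gave 0 of the 45 at either threshold and limma 0 of the 43 it tested, although over all genes DESeq2 called 194 (1.00%) and limma 9 (0.0749%). Of the 45, 18 had a positive and 27 a negative log2 fold change, with a median of -0.06 against -0.01 for all genes tested, and the values ran from -0.47 in MBNL2 to 0.45 in CELF2. The smallest adjusted p was 0.895, also in CELF2. The precision of these null results can be read from their 95% confidence intervals, which lay wholly within a 2-fold change in either direction for 44 of the 45 genes and within 1.5-fold for 35. MBNL2 was the exception to the first, with an interval from -1.20 to 0.26 on the log2 scale. Because the samples are bulk RNA, a smaller number of cells carrying a transcript and less of it per cell cannot be told apart.

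**Figure D2:**
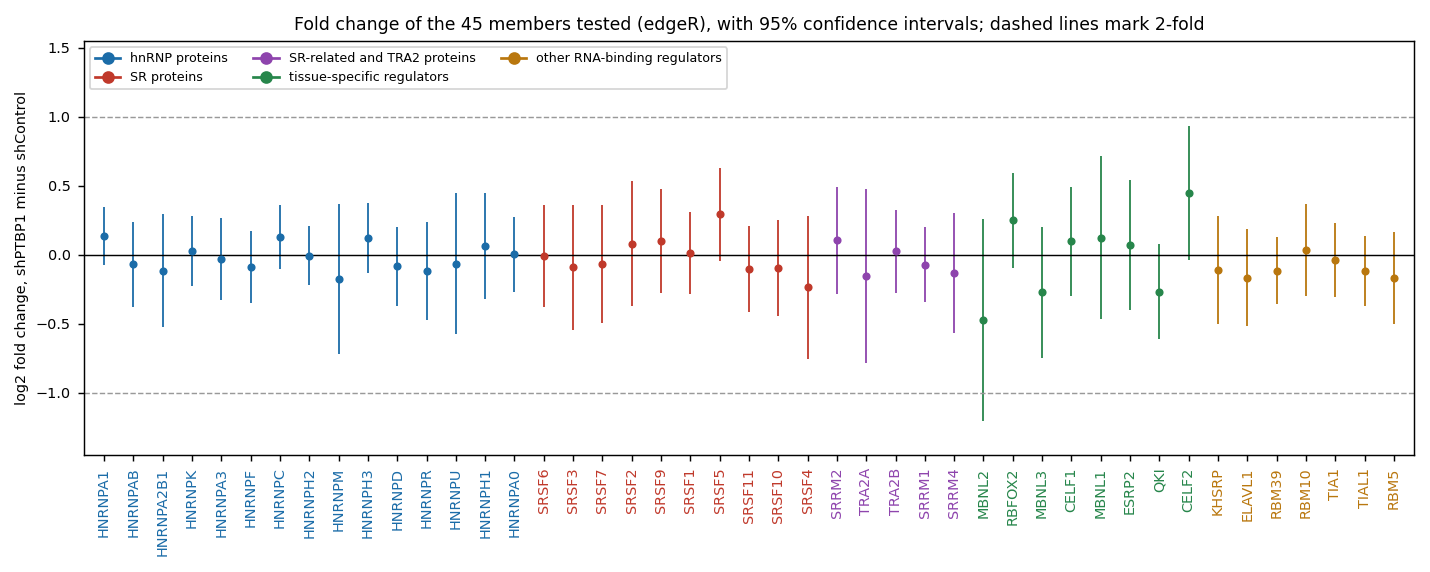
Log2 fold change of the shPTBP1 against the shControl libraries (points) with 95% confidence intervals (bars) from edgeR for the 45 genes tested, coloured by role. Every interval crosses 0, and only that of MBNL2 crosses a dashed line, which marks a 2-fold change.

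The hnRNP proteins had changes from -0.18 in HNRNPM to 0.13 in HNRNPA1 on the log2 scale, 6 positive and 9 negative. HNRNPA1 (ENSG00000135486, chr12:54280193-54287087, plus strand), which binds exons and introns and mostly represses splice sites, was at 1143, 1093 and 1124 CPM in shControl 1, 2 and 3 and at 1184, 1178 and 1327 CPM in shPTBP1 1, 2 and 3. Every shPTBP1 library was above every shControl library, but the log2 fold change was 0.13 (SE 0.09, 95% interval -0.08 to 0.35, adjusted p = 0.953 from edgeR). HNRNPC (chr14:21209136-21269494, minus strand), which binds uridine tracts and keeps cryptic exons out of transcripts, was at 521, 600 and 590 CPM in shControl and at 612, 601 and 657 CPM in shPTBP1 libraries. Its groups were held apart only by the narrow gap between shControl 2 and shPTBP1 2, and they overlapped under each of the 3 other scalings tried, the deposited FPKM included. The log2 fold change was 0.13 (SE 0.10, adjusted p = 0.957 from edgeR). HNRNPA0, the hnRNP protein with the lowest level, was at 172, 162 and 153 CPM in the shControl libraries and 150, 154 and 183 CPM in shPTBP1 libraries, a log2 fold change of 0.00 (95% interval -0.27 to 0.28) whose sign changed with the setting. The other paralogs of the A group gave -0.12 for HNRNPA2B1 and -0.03 for HNRNPA3, and the G-tract binders HNRNPF, HNRNPH1, HNRNPH2 and HNRNPH3 gave -0.09, 0.07, -0.01 and 0.12.

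The SR proteins gave 4 positive and 6 negative changes, from -0.24 in SRSF4 to 0.29 in SRSF5 on the log2 scale. SRSF5, which was singled out after its values were seen, was at 94.1, 92.9 and 114 CPM in shControl 1, 2 and 3 and at 115, 111 and 143 CPM in shPTBP1 1, 2 and 3. Only shControl 3 reached into the range of the shPTBP1 libraries, and the change had an SE of 0.14 and an adjusted p of 0.923 from edgeR. SRSF6, the highest of the SR proteins in FPKM, was at 219, 210 and 171 CPM in the shControl libraries and 168, 193 and 235 CPM in shPTBP1 libraries. The lowest and the highest of the 6 libraries were both shPTBP1 libraries, and the log2 fold change was -0.01 (SE 0.16). SRSF4, a relative of SRSF6 with a long arginine and serine domain, was at 75.7, 92.4 and 92.4 CPM in the shControl libraries and 98.5, 68.3 and 54.2 CPM in shPTBP1 libraries. Its change of -0.24 (SE 0.22, adjusted p = 0.973 from edgeR) was -0.06 without shPTBP1 3 and -0.51 without shPTBP1 1. SRSF1, a founding member of the family, gave 0.01 (95% interval -0.28 to 0.31).

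Among the SR-related proteins, which carry an arginine and serine domain without being classical SR proteins, the 2 TRA2 proteins bind purine-rich enhancers and the SRRM proteins bridge enhancers and the spliceosome. SRRM2, the highest of these 5, was at 278, 331 and 255 CPM in the shControl libraries and 372, 299 and 258 CPM in shPTBP1 libraries. Its log2 fold change of 0.10 (SE 0.16) became -0.05 without shPTBP1 1 and 0.22 without shPTBP1 3 or shControl 2. SRRM4, which drives microexons in neurons, was listed at 0.59, 0.66 and 0.60 FPKM in shControl and at 0.65, 0.56 and 0.45 FPKM in shPTBP1 libraries. It had between 481 and 821 counts per library, enough for an interval from -0.57 to 0.30 around a log2 fold change of -0.13. TRA2B gave 0.02 (SE 0.13) and TRA2A -0.16 (SE 0.27), the latter with shControl 3 far below the other libraries.

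The tissue-specific regulators held the widest changes. MBNL2 (ENSG00000139793, chr13:97221434-97394120, plus strand), a muscleblind protein that sets adult exon patterns, was at 107, 87.3 and 84.4 CPM in shControl 1, 2 and 3 and at 83.7, 81.1 and 35.7 CPM in shPTBP1 1, 2 and 3. The groups did not overlap, but shPTBP1 1 and 2 lay just under shControl 3 and only shPTBP1 3 stood well below. The log2 fold change was -0.47 (SE 0.31, adjusted p = 0.953 from edgeR) and became -0.17 without shPTBP1 3 and -0.67 without shPTBP1 1. Its paralogs MBNL1 and MBNL3 gave 0.12 (SE 0.25) and -0.27 (SE 0.20). CELF2 (chr10:10798397-11334358, plus strand), of a family that often opposes the muscleblind proteins at the same exons, was at 9.10, 7.66 and 10.95 CPM in the shControl libraries and 10.3, 14.3 and 13.2 CPM in shPTBP1 libraries. shControl 3 lay above shPTBP1 1, so the groups overlapped, and the log2 fold change was 0.45 (SE 0.21, 95% interval -0.04 to 0.93). The ubiquitous CELF1 gave 0.10 (SE 0.17). RBFOX2, the RBFOX protein of non-neuronal cells, gave 0.25 (SE 0.15), QKI, which binds introns and lowers or raises exon use by position, gave -0.27 (SE 0.15), and ESRP2 gave 0.07 (SE 0.20). Over all 45 genes, HNRNPA1, HNRNPC and MBNL2 were the 3 whose groups did not overlap (6.67%), against 11.9% of all genes tested, of which 6.49% were higher and 5.46% lower in the shPTBP1 libraries. In deposited FPKM there were also 3, with QKI in place of HNRNPC.

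Of the other 7 regulators, 6 had a negative change and 1 a positive one, and each 95% interval lay within 1.5-fold. KHSRP, a KH-domain protein that also speeds the decay of AU-rich messages, was at 222, 215 and 149 CPM in the shControl libraries and 181, 194 and 167 CPM in shPTBP1 libraries, with shControl 3 the lowest of all. Its log2 fold change was -0.11 (SE 0.17), and it was -0.27 without shControl 3, -0.01 without shControl 1, -0.04 without shControl 2 and -0.06 without shPTBP1 3. RBM5, the lowest of the 7 in FPKM, was at 92.6, 94.6 and 93.7 CPM in the shControl libraries and 67.6, 85.4 and 96.4 CPM in shPTBP1 libraries, a tight control group beside a scattered one. Its change was -0.17 (SE 0.14), and -0.04 without shPTBP1 1 and -0.29 without shPTBP1 3. ELAVL1, which stabilises AU-rich messages, gave -0.17 (SE 0.15), RBM39 -0.12 (SE 0.10), TIAL1 -0.12 (SE 0.11), TIA1 -0.04 (SE 0.11) and RBM10 0.04 (SE 0.14).

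**Figure D3:**
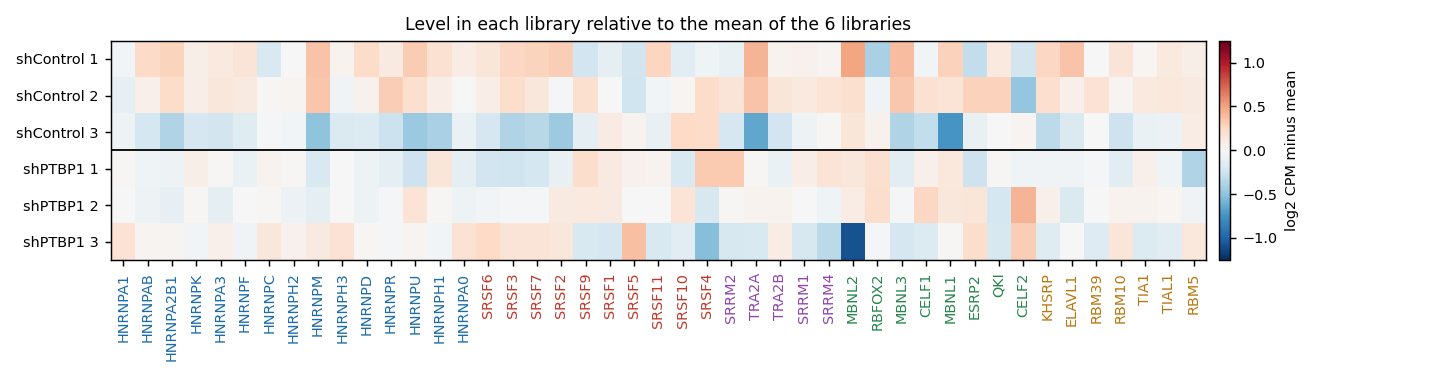
Colour shows log2 CPM minus the gene's mean over the 6 libraries for the 45 genes tested (columns, ordered by role) in each library (rows), with the shControl libraries above the black line. shControl 3 is the lowest library for 23 of the 45 genes, and the dark cell in shPTBP1 3 is MBNL2.

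By summed FPKM, the shControl libraries lay on both sides of the shPTBP1 libraries. The FPKM of the 48 genes summed to 1728.5, 1718.5 and 1438.0 in shControl 1, 2 and 3. The sums were 1560.1, 1580.5 and 1604.6 in shPTBP1 1, 2 and 3. shControl 3 was the lowest of the 6 libraries for 23 of the 45 genes (51.1%), against 20.8% of all genes tested, and it was the highest for 1. Among genes with a mean of at least 30 CPM it was lowest for 23 of 42 regulators and for 30.3% of all 6395 genes. The hnRNP proteins accounted for 11 of the 23. Between the libraries numbered 1 and 2 alone, 35 of the 45 genes were lower in shPTBP1, against 49.6% of all genes. The median log2 difference was -0.12 against 0.00 for all genes. Between the libraries numbered 3, compared 1 against 1 without a test, 32 of the 45 were higher in shPTBP1, against 48.9% of all genes. The median was 0.18 against -0.01 for all genes, and the 32 included all 15 hnRNP proteins. With the deposited FPKM in place of TMM-normalized CPM, these counts were 21 for the lowest library, 35, 30 and again 15.

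HNRNPM, HNRNPA2B1 and MBNL1, named after their values were seen, had the smallest p for this contrast between the numbers, in the interaction fit given below. HNRNPM (chr19:8444767-8489114, plus strand), which binds GU-rich RNA, was at 379, 377 and 210 CPM in shControl 1, 2 and 3 and at 260, 275 and 320 CPM in shPTBP1 1, 2 and 3. Its libraries numbered 1 and 2 were lower in shPTBP1 by a log2 difference of -0.50 (SE 0.08), and its libraries numbered 3 were higher by 0.61. HNRNPA2B1 (chr7:26173057-26201529, minus strand), which also takes part in RNA transport, was at 1703, 1652 and 1085 CPM in the shControl libraries and 1347, 1311 and 1442 CPM in shPTBP1 libraries. The log2 differences were -0.34 (SE 0.08) in numbers 1 and 2 and 0.41 in number 3. MBNL1 was at 113, 104 and 55.6 CPM in the shControl libraries and 101, 102 and 93.5 CPM in shPTBP1 libraries, with shControl 3 alone far from the rest. In all 3 genes every shPTBP1 library lay between shControl 3 and the other shControl libraries.

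**Figure D4:**
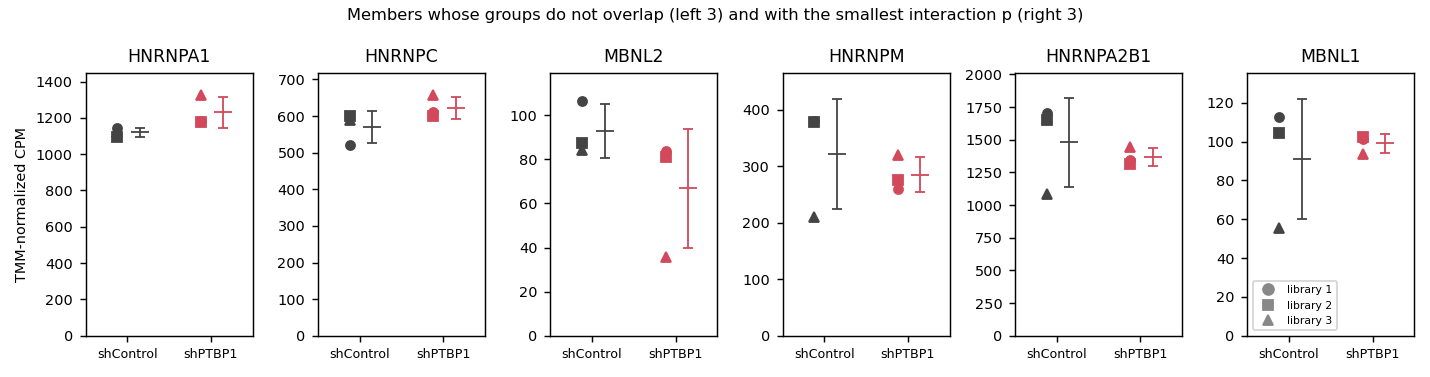
TMM-normalized CPM (linear axes from 0) of 6 genes in each library, with symbols for the library number and the mean ± SD (n = 3) beside each group. The left 3 genes have groups that do not overlap; in the right 3, chosen by the smallest interaction p, the triangle of shControl 3 lies far below the other shControl libraries.

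Tests within the numbers gave no adjusted call for a regulator. In the libraries numbered 1 and 2, 10 of 45 had an unadjusted p under 0.05 (22.2%), where 17.7% of all genes did, and none passed the adjustment, where 0.319% did. Of the 10, HNRNPM, HNRNPA2B1, HNRNPR, SRSF3, SRSF7, TRA2A, MBNL3 and KHSRP were lower in the shPTBP1 libraries and SRSF5 and RBFOX2 higher, and the smallest adjusted p was 0.101 in HNRNPM by edgeR. MBNL3 was at 243 and 235 CPM in shControl 1 and 2 and at 170 and 183 CPM in shPTBP1 1 and 2, a log2 difference of -0.44 (SE 0.08), and it was at 143 CPM in shControl 3 and 161 CPM in shPTBP1 3. SRSF3, which couples splicing to export and 3′ end processing, was at 323 and 315 CPM against 228 and 265 CPM in numbers 1 and 2, and at 209 against 302 CPM in number 3. RBFOX2 went the other way, with 125 and 160 CPM against 189 and 192 CPM in numbers 1 and 2, and 171 against 162 CPM in number 3.

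Without shControl 3 alone, 9 of 45 had an unadjusted p under 0.05 (20%), where 16.6% of all genes did, and the smallest adjusted p was 0.0916 in MBNL3 by edgeR, where 0.674% of all genes were called. A term for the difference between number 3 and numbers 1 and 2, added after the data were seen and with each lone library assumed to vary like the others, gave 20 of 45 at an unadjusted p under 0.05 (44.4%), where 17.3% of all genes did. Of these 20, 18 were positive, including 8 hnRNP proteins, where 8.01% of all genes were positive at that threshold, and SRSF1 and MBNL2 were negative. None passed the adjustment, where 0.0103% of all genes did, and the smallest adjusted p was 0.104 in HNRNPM, with a term of 1.11 (SE 0.14). The shares of all genes beside these counts, here and for numbers 1 and 2, were not matched for level. Of the 45 regulators, 42 had a mean of at least 30 CPM, against 6395 of the 19393 genes tested. The red-cell transcripts given above, and the leukocyte genes apart from CD68, were low in both libraries numbered 3. Of the regulators, 23 were lowest in shControl 3 and 9 in shPTBP1 3, namely SRSF1, SRSF4, SRSF11, SRRM1, SRRM4, MBNL2, TIA1, TIAL1 and RBM39. The share of all genes lowest in shPTBP1 3 was not computed. The part of the blood transcripts in the result was not tested.

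The order of the genes by level depended on the length of the gene. In 88.8% of 6517 genes with at least 5 FPKM, the length implied by the deposited counts and FPKM kept a constant ratio to the union of all annotated exons, within 0.05 on the log2 scale. For these regulators that union was a median of 2.12 times as long as the principal transcript (range 1 to 7.38), against 1.47 times for the protein-coding genes tested. They had a median of 12.5 annotated transcripts, against 7. When CPM was divided by the kilobases of the principal transcript instead, HNRNPA2B1 became the highest at 547 CPM per kilobase, followed by HNRNPA3 at 388, HNRNPC at 348 and HNRNPA1 at 285. RBFOX2, whose union was 10014 bases long and whose principal transcript 1356, moved from 13.4 FPKM to 123 CPM per kilobase, eighth of the 48.

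**Figure D5:**
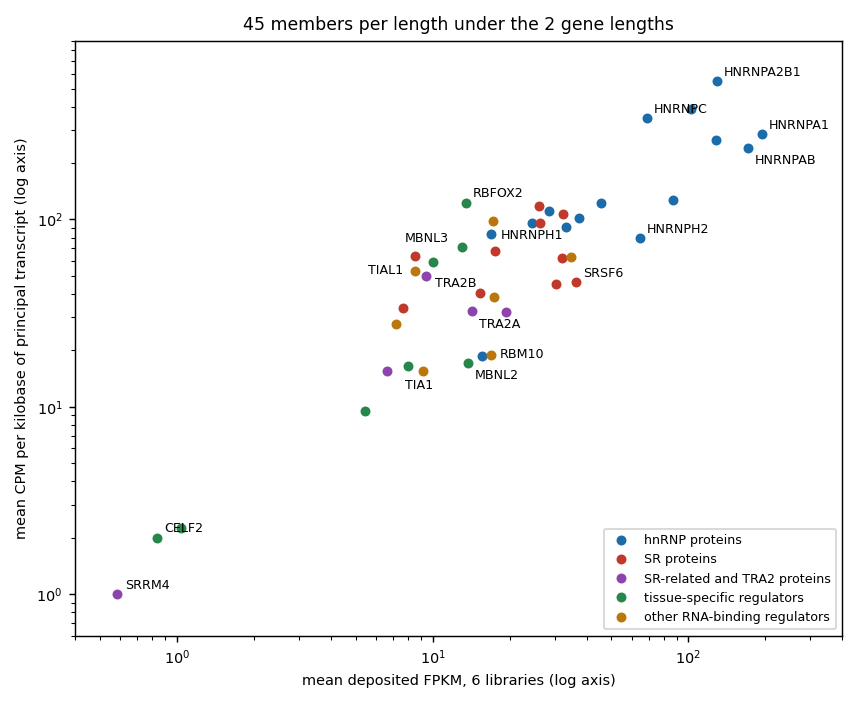
Mean deposited FPKM against mean CPM per kilobase of the principal transcript (both log axes) for the 45 genes tested, 1 point per gene, coloured by role. HNRNPA1 is farthest right and HNRNPA2B1 highest, and Spearman's rho over the 45 points, which share their counts, is 0.81.

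Several paralog pairs changed order with the length used. TRA2A was above TRA2B in all 6 libraries in deposited FPKM (median ratio 1.52, range 1.10 to 1.91) and below it in all 6 per kilobase of principal transcript (median 0.654, range 0.476 to 0.822). SRSF5 was below SRSF6 by a median ratio of 0.509 in FPKM and above it by 1.56 on the other scale, again in 6 of 6 libraries each. RBM5 and RBM10 gave 0.410 and 1.41, and TIA1 and TIAL1 gave 1.07 and 0.290, with 6 of 6 libraries on 1 side in each case. HNRNPH1, with 50 annotated transcripts, was at a ratio of 0.273 to HNRNPH2, with 1 transcript, in FPKM and at 1.10 per kilobase of principal transcript, where only 4 of 6 libraries were above 1. Other orders held on both scales in all 6 libraries: CELF1 was above CELF2 by a median ratio of 11.9 in FPKM and 29.4 on the other scale, MBNL1 was below MBNL3 by 0.622 and 0.236, and HNRNPA0 was below HNRNPA1 by 0.0799 and 0.0646. These ratios between genes do not bear on the fold changes, which compare a gene with itself.

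Reads that fit more than 1 gene limit some of these values. The table listed 75 genes named as copies of HNRNPA1, whose counts summed to between 7.62% and 9.15% of its own, 16 of HNRNPA3, 9 of HNRNPC and 5 of HNRNPK, so the levels of these 4 genes are uncertain by the share that the counting moved between copies. The annotation placed 10 of the 48 across a protein-coding gene on the other strand, such as HNRNPA2B1 over CBX3, which had 20.6% as many counts. Over the 6 libraries, NDUFB11 had 45749 counts against 32214 for RBM10, and NFATC3 had 22511 against 16476 for ESRP2. In the rest of the 10, each such gene had fewer counts than the regulator, by a margin that varied. CELF1, with 56938 counts, lay across both PTPMT1 with 36484 and NDUFS3 with 22925. GATC had 34436 against 52941 for SRSF9, and PHYKPL had 7974 against 195686 for HNRNPAB. RBM5 lay across RBM6 on the same strand, with 40077 counts against 35887. Whether the counting used strand is not stated, so reads there cannot be assigned with certainty.

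Genes around these regulators were read from 3 lists, and none passed the adjusted threshold. Of 11 kinases and import factors of SR proteins tested, 1 had an unadjusted p under 0.05: CLK2, which phosphorylates SR proteins in the nucleus, was at 42.8, 42.2 and 40.3 CPM in the shControl libraries and 60.3, 52.5 and 51.7 CPM in shPTBP1 libraries. Its groups did not overlap, with a log2 fold change of 0.39 (SE 0.11, adjusted p = 0.631 from edgeR). Of 19 further hnRNP and SR family genes tested (of 20 listed), 2 had an unadjusted p under 0.05, both higher in shPTBP1 libraries. PTBP2, the neuronal paralog of PTBP1, was at 31.2, 28.7 and 9.20 CPM in the shControl libraries and 59.0, 62.6 and 50.5 CPM in shPTBP1 libraries, a log2 fold change of 1.32 (SE 0.41, adjusted p = 0.718 from edgeR). PNN, a partner of SR proteins, gave 0.33 (SE 0.11), and PCBP2, a poly(C)-binding protein with the next smallest p, gave 0.25 (SE 0.11). Of 21 further tissue-specific and RNA-binding regulators tested (of 31 listed), 3 had an unadjusted p under 0.05, PTBP2 again, RBM25 with 0.36 (SE 0.13) and ELAVL2 with 1.39 (SE 0.53) at 0.14 FPKM or less, while RBM38 was next with -0.36 (SE 0.17). The medians of the lists were 0.05, -0.02 and -0.04 on the log2 scale, and 5.69% of all genes had an unadjusted p under 0.05.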

How the data were processed

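Per library, the authors deposited FPKM and counts for 58825 genes, beside functional annotation. The submitters named HISAT2 2.2.1, StringTie, cutadapt 1.9 and FastQC as tools and hg38 as the build, with no settings. The deposited counts were treated as estimated counts, since between 32.5% and 34.4% of those from 1 to 40 were multiples of 4, and rounding left them as they were. Depth in fragments is therefore not known, and the totals may overstate it. Libraries were grouped by their titles. The test was the quasi-likelihood F test of edgeR 4.0.16 under R 4.3.3, after its filter on low counts (19393 genes), with TMM scaling, no covariate and Benjamini-Hochberg adjustment over all genes tested. The members and lists were chosen with earlier results of these data known.

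Among the regulators, library values were given for each whose groups did not overlap and for the highest and lowest tested gene of each role. They were also planned for any regulator with an unadjusted p under 0.05. The untested genes under 1 FPKM were given as ranges. Up to 4 genes per list with the smallest p were named, CLK2 and PTBP2 with library values and the others with the fold change alone. Gene lengths and exons came from GENCODE release 29. On simulated counts for 18723 genes, the test called 25.5% of the genes given a 2-fold change, 74.5% of those given a 4-fold change and 3 unchanged genes. The changed genes were drawn at random from all genes tested and were not matched to the regulators for level or spread. These shares therefore do not apply to the regulators themselves. Over all genes tested, the deviations of same-numbered libraries from their group means correlated at -0.01 to 0.16, and not every pair was above 0.1, so the numbers were not taken as pairs. Alternatives were DESeq2 1.42.0, limma 3.58.1 on log2(FPKM + 1), other filters and pseudocounts, counts divided by 4, a replicate block, a covariate for number 3, numbers 1 and 2 alone and each library left out. The interaction, the other scalings and the principal-transcript length were chosen after seeing the data. Python 3.11.15 with pandas 2.3.3 and matplotlib 3.10.9 was used.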

Additional observations from a re-analysis of the deposited data

How the results depend on the processing

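No regulator passed the adjusted threshold under any of the 15 alternatives. The number at an unadjusted p under 0.05, 0 as reported, was 1 with a replicate block (SRSF5), 2 with number 3 as a covariate (SRSF5 and MBNL2), 10 in numbers 1 and 2 alone and between 0 and 9 when 1 library was left out, the 9 without shControl 3 and 2 without shPTBP1 1 (SRSF4 and CELF2). The genes called over all, 6 as reported, were 194 by DESeq2, 1 by limma without a filter, 0 with a replicate block, 3 with number 3 as a covariate, 63 in numbers 1 and 2 alone and between 2 and 136 when 1 library was left out, the 136 without shControl 3. The median log2 fold change stayed within its spread of 0.106 between libraries but ran from -0.13 to 0.02 when 1 library was left out, positive without shControl 1 or 2. The sign of HNRNPA0 (0.0035) reversed by DESeq2 (-0.0013), by limma (-0.027, and -0.028 with a pseudocount of 0.1, and -0.027 without a filter), with a replicate block (-0.00060), with the covariate (-0.0010) and in numbers 1 and 2 (-0.13), and with 1 library left out it ran from -0.091 to 0.056, negative without shControl 3 (-0.039) or shPTBP1 3. SRSF6 (-0.011) ran from -0.15 to 0.095 with 1 library left out, positive without shControl 1 (0.058), shControl 2 (0.025), shPTBP1 1 or shPTBP1 2 (0.0078), and SRRM2 (0.10) from -0.050 without shPTBP1 1 to 0.22. The cause was not tested. The replicate block changed no other call. The counts of regulators lowest in shControl 3, lower in numbers 1 and 2 and higher in number 3 were 21 to 23, 35 and 30 to 32 over 4 scalings of the libraries.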
